A study of Mus musculus with 96 samples.

Results

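The genes described here are 55 transcription factors that pattern the embryo and are commonly held to be shut off by Polycomb repression in mature forebrain neurons, among them T-box, paired box, GATA, Iroquois, Hox and Onecut genes. They were chosen by gene symbol, and each matched 1 of the 48795 genes in the count table. No filter on expression was applied, so that a gene near the limit of detection was not kept merely because it was high in some genotype. The samples were striatum and cerebral cortex of 48 C57BL/6 mice at 6 months of age, 8 per genotype with 4 males and 4 females, and each mouse gave both tissues. In the Q140 knock-in mice, heterozygous here, 1 copy of the huntingtin gene Htt carries an expanded CAG repeat, as in Huntington's disease. The 6 genotypes were Q140 on an Msh6-/- background, Msh6-/-, Q140 on an Msh6+/- background, Msh6+/-, Q140 and wild type, where Msh6 encodes a DNA mismatch repair protein. The labels name no transgene, driver or Cre line.

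Polycomb group proteins keep such genes off after development by modifying the histones around their start sites, which are typically rich in CpG dinucleotides. Developmental regulators of this kind set up regional and cell type identity in the embryo, and some stay in use in particular adult neurons, glia, vessels or meninges. In the striatum most neurons are spiny projection neurons, with smaller numbers of interneurons that derive from the Nkx2-1 domain of the ventral forebrain.

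The 250 bases before the annotated start are shown for 3 members, each 1 example of a pattern of reads. Onecut1 was higher in Q140 striatum, Nkx2-1 was in regular use and lower in Q140 striatum, and Hoxd13 had no read in any library. The sequences are from RefSeq on GRCm38.p6, 5′ to 3′ on the gene's own strand, with every CG in capitals. Onecut1 lies at chr9:74861671-74861920 on the plus strand, Nkx2-1 at chr12:56536909-56537158 on the minus strand and Hoxd13 at chr2:74667975-74668224 on the plus strand.
Onecut1: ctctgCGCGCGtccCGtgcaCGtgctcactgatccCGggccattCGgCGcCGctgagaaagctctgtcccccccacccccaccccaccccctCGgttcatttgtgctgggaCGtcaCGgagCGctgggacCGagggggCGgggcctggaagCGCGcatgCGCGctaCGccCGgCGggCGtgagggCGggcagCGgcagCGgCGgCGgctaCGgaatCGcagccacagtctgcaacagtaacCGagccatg
Nkx2-1: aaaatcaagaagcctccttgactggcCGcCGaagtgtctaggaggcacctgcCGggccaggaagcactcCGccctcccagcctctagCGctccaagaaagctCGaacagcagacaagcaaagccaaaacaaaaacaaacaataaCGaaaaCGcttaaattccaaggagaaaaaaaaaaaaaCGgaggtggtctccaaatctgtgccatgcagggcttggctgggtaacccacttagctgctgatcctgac
Hoxd13: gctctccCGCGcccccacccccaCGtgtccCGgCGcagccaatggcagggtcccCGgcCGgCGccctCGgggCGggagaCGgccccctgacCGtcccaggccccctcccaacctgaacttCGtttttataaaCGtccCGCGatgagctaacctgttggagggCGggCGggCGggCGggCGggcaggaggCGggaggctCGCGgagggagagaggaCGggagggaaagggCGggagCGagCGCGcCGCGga
The stretches of Onecut1 and Hoxd13 held 31 CpG each and that of Nkx2-1 held 9. These numbers do not stand for the patterns. Gata2, Msx1, Tbx1 and Pax6, with reads in every library, held 22, 20, 17 and 15 CpG. Hoxd8, with no striatal read, held 6, and Otx2 held 9. No promoter was listed for Wt1, Sim2, Tbx5, Irx5 and Onecut2, which were also higher in Q140 striatum. A promoter was listed for 36 of the 55 members, and their median was 16.5 CpG in 250 bases, against 5 over the 27025 genes of the same table. At least 10 CpG were present in 28 of the 36 (77.8%), against 37.7% of all genes listed, and at least 1 in all 36, against 91.6%. The count is a description of the letters, with the first entry by position taken for the 7 members that had several.

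The libraries held 12403528 to 22886441 counted reads. Msh6 followed the labels in striatum with reads left in Msh6-/- mice, at 8.16 ± 0.76 CPM (read counts scaled to library size with TMM factors) in Q140 Msh6-/-, 8.09 ± 1.29 in Msh6-/-, 13.9 ± 0.84 in Q140 Msh6+/-, 13.8 ± 1.29 in Msh6+/-, 18.95 ± 0.84 in Q140 and 17.4 ± 1.37 in wild-type mice (SD, n = 8 each). Htt had a log2 fold change of -0.13 ± 0.02 (SE) in all Q140 against all non-Q140 striata (adjusted p = 5.23e-07). Of 10 markers of striatal projection neurons 9 fell and 1 rose in Q140 striatum, and their summed level was 7416 to 8218 CPM in the 24 Q140 striata, against 11570 to 14720 CPM in the 24 non-Q140 striata. In tissue of this kind, fewer cells of a type and less RNA per cell cannot be told apart.

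The name of silenced genes held for part of the list only, so they are called developmental transcription factors here. Reads were found for 49 of the 55 members, and 10 had a read in each of the 96 libraries: Onecut2, Pax6, Gata2, Tbx1, Tbx2, Tbx3, Tbx18, Otx1, Msx1 and En2. At the other end, Hoxa5, Hoxb5, Hoxd13, Foxd3, Irx4 and Pitx1 had no read in either tissue, which at 3 reads over the 48 libraries of a tissue allows up to 0.00343 CPM in striatum and 0.00309 CPM in cortex. Striatum also had no read of Gata4, Hoxc10, Hoxd8, Hoxd10 and Foxa2, and cortex none of Pax9, Tbx5 and Foxa1.

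Between these ends, 19 members were seen in fewer than 24 of the 48 striatal libraries: Onecut3, Pax2, Pax3, Pax7, Pax8, Pax9, Lhx1, Lhx4, Lhx5, Gata3, Tbx5, Pitx3, Six2, Foxa1, Sim1, Sim2, Barhl1, Barhl2 and En1. The other 25 were seen in 24 or more, which are Wt1, Onecut1, Lhx9, Gata6, Tbx4, Tbx15, Tbx20, Nkx2-1, Nkx6-1, Otx2, Irx1, Irx2, Irx3, Irx5, Msx2 and the 10 genes found everywhere. In cortex 22 members were in the lower class and 24 in the higher. The lower class of cortex held Nkx2-1, Otx2, Irx2, Irx5, Tbx20, Gata4, Foxa2, Hoxc10, Hoxd8 and Hoxd10, besides Onecut3, Pax3, Pax7, Pax8, Lhx1, Lhx4, Lhx5, Gata3, Sim1, Barhl1, Barhl2 and En1, while Pax2, Six2, Pitx3 and Sim2 were in its higher class.

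**Figure D1:**
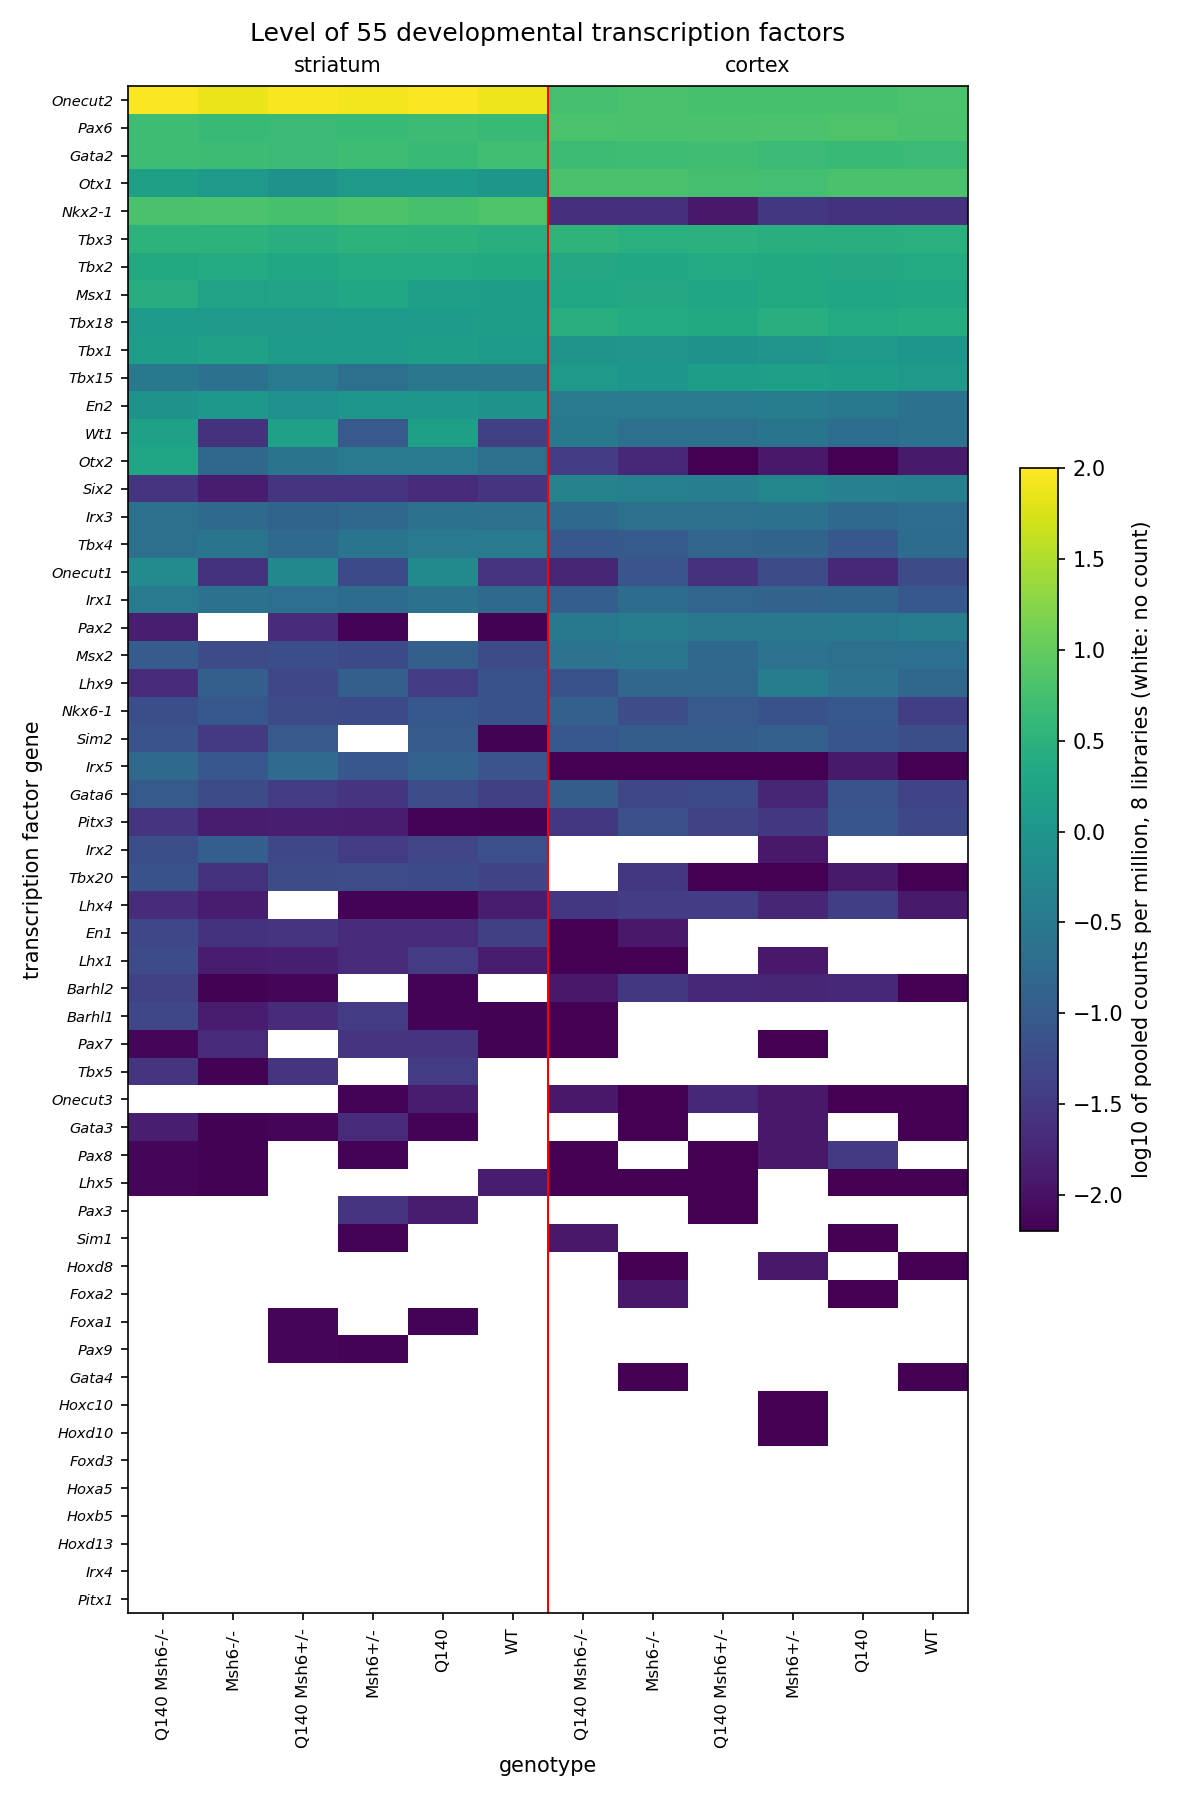
Pooled level of each of the 55 genes (rows) in the 6 genotypes of striatum and cortex (columns, 8 libraries each), as log10 of CPM without TMM factors, with white where no read was counted. Onecut2 is brightest in striatum, Wt1 and Onecut1 are brighter in the 3 Q140 than in the 3 non-Q140 columns of striatum, and 6 rows are white throughout.

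Per base of transcript the highest member in striatum was Onecut2, a cut-homeodomain activator, at 6.46 FPKM (reads scaled by transcript length and library total, mean of 48 libraries). Nkx2-1, which specifies ventral forebrain interneurons, followed at 2.24 FPKM. Gata2, a zinc finger factor of blood, endothelium and some neurons, stood at 0.90 FPKM, and Tbx1 stood at 0.77, Tbx2 at 0.63, Msx1 at 0.60, Tbx3 at 0.47 and Pax6 at 0.39 FPKM. In cortex Otx1, a homeodomain factor of deep-layer cortical neurons, was highest at 1.10 FPKM, ahead of Gata2 at 0.88, Msx1 at 0.66, Tbx2 at 0.60, Tbx1 at 0.56, Pax6 at 0.55, Tbx18 at 0.53, Onecut2 at 0.46 and Tbx3 at 0.45 FPKM.

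A striatal library held reads of 27.8 ± 2.61 members in Q140 Msh6-/-, against 24.1 ± 2.47 in Msh6-/- mice (SD, n = 8 each). It held 25.4 ± 1.77 in Q140 Msh6+/-, against 25.9 ± 3.44 in Msh6+/- mice, and 26.2 ± 2.61 in Q140, against 23.2 ± 2.55 in wild-type mice. With every library thinned to the depth of the smallest, the numbers were 25.9, 23.9 and 24.5 in Q140 Msh6-/-, Q140 Msh6+/- and Q140, against 21.6, 23.1 and 21.1 in Msh6-/-, Msh6+/- and wild-type mice, so that the order on the Msh6+/- background turned. Counting only members with at least 3 reads and no thinning, the numbers were 19.1, 18.2 and 19.6 in the 3 Q140 genotypes, against 15.8, 15.5 and 15.2 in Msh6-/-, Msh6+/- and wild-type mice. The ranges overlapped, from 14 to 22 members in Q140 striata and from 13 to 18 in non-Q140 striata. Without thinning, the highest Q140 Msh6-/- striatum was that of mouse 21-3, with 33 members, and the next had 30. The striatal library of mouse 21-3 is described below with Otx2. A few members weigh on the offsets between Q140 and non-Q140 groups. Wt1 had a read in 24 Q140 and 14 non-Q140 striata, and Onecut1 in 24 and 12. Sim2 had one in 19 and 4, and Tbx5 in 10 and 1. Among those going the other way were Lhx9, in 10 and 19, and Irx2, in 11 and 17. Without thinning, all genes with a read numbered 22278 to 23609 per Q140 striatum and 22680 to 23453 per non-Q140 striatum. Cortical libraries held 23 to 25.8 members on average in the 6 genotypes, with no like offset between Q140 and non-Q140 groups.

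Pooling the 3 Q140 genotypes against the 3 non-Q140 genotypes, with sex in the model, 10 of the 44 members with a striatal read were called at an adjusted p under 0.05, or 22.7%, when 28.1% of all 32340 genes tested were called. The share of the list was thus below that of all genes, and its median log2 fold change was 0.07, against 0.01 over all genes. Of the members, 7 rose, when 14.7% of all genes did, namely Wt1, Onecut1, Sim2, Tbx5, Otx2, Irx5 and Onecut2. Another 3 fell, when 13.4% of all genes did, namely Nkx2-1, Gata2 and Lhx9. With edgeR's filterByExpr, which Wt1 and Onecut1 pass through their Q140 libraries, 5 of 13 members were called, when 52.7% of genes were.

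Wt1, a zinc finger factor of kidney, gonad and mesothelium development (chr2:105126529-105173616, plus strand, GRCm38), was near 0 in non-Q140 striatum and plainly present in Q140 striatum. Lowest, median and highest read numbers per library were 8, 22 and 57 in Q140 Msh6-/- striata, against 0, 0 and 2 in Msh6-/- striata. They were 7, 27.5 and 52 in Q140 Msh6+/- striata, against 0, 2 and 4 in Msh6+/- striata, and 15, 28 and 45 in Q140 striata, against 0, 1 and 2 in wild-type striata. Each of the 24 Q140 striata was thus above every non-Q140 striatum, whatever the Msh6 genotype. Such a gap, with all Q140 libraries above, was found for 0.374% of all genes in CPM, and for Wt1 and Onecut1 among the members. In CPM Wt1 averaged 1.49 ± 0.69 in Q140 and 0.0566 ± 0.063 in non-Q140 striata (SD, n = 24 each), a log2 fold change of 4.77 ± 0.24 (adjusted p = 1.77e-26). By fold change it ranked 2 among the 4754 genes that rose.

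Within each Msh6 background Wt1 was called as well. The log2 fold change was 5.48 ± 0.46 in Q140 Msh6-/- against Msh6-/- mice (adjusted p = 9.11e-16), where 5 members and 15.8% of all genes were called, or 3 of 13 members and 33.0% of genes with filterByExpr. It was 3.84 ± 0.37 in Q140 Msh6+/- against Msh6+/- mice (adjusted p = 3.69e-13), where 3 members and 15.0% of genes were called. In Q140 against wild-type mice it was 4.98 ± 0.43 (adjusted p = 4.86e-15), with 4 members and 14.1% of genes called. These 3 comparisons share no mouse. Each rests on few reads in the non-Q140 groups, 4, 14 and 6 in all, and a ratio of reads scaled to library totals with its 95% exact interval for counting error was 60.6 (23.3 to 224) on the Msh6-/- background, 16.5 (9.64 to 30.7) on Msh6+/- and 38.6 (17.5 to 106) on wild type. The 3 intervals overlapped.

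Onecut1, a cut-homeodomain relative of Onecut2 that acts in liver, pancreas and motor neuron development (chr9:74861921-74891781, plus strand), showed the same split at lower levels. It had 4, 11 and 22 reads (lowest, median and highest) in Q140 Msh6-/- striata, against 0, 0 and 2 in Msh6-/- striata. The numbers were 3, 10 and 20 in Q140 Msh6+/-, against 0, 1 and 2 in Msh6+/- striata, and 5, 12 and 17 in Q140, against 0, 0 and 2 in wild-type striata. Again no Q140 striatum was as low as any non-Q140 striatum. The means were 0.619 ± 0.27 CPM in Q140 and 0.0372 ± 0.042 CPM in non-Q140 striata (SD, n = 24 each; log2 fold change 3.90 ± 0.29, adjusted p = 1.11e-18, rank 4 of the 4754 rises). In the separate backgrounds the log2 fold change was 4.31 ± 0.51 (Msh6-/-, adjusted p = 3.31e-10), 3.19 ± 0.47 (Msh6+/-, adjusted p = 1.51e-07) and 4.21 ± 0.51 (wild type, adjusted p = 1.10e-09).

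The annotation places the long non-coding gene Gm20649 over 29556 bases of Onecut1 on the same strand. An annotated gene overlapped 24 of the members in all, 10 of them on the same strand. Gm20649 had no read in any of the 96 libraries, and how reads over both were assigned is stated neither in the labels nor in the files, so the level of Onecut1 is uncertain. The gene Wt1os, named for its opposite strand to Wt1, had 1 read over all striata and 1 over all cortices. Across the 24 Q140 striata the CPM of Wt1 and of Onecut1 showed no clear relation (Pearson r = -0.16, permutation p = 0.471; Spearman rho = -0.12, permutation p = 0.587; r = 0.05 without the 2 libraries farthest from the median of Wt1). Within the 12 females r was 0.10 (permutation p = 0.751) and within the 12 males 0.12 (permutation p = 0.725), and without the 2 farthest libraries of each sex these were 0.43 and -0.40.

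**Figure D2:**
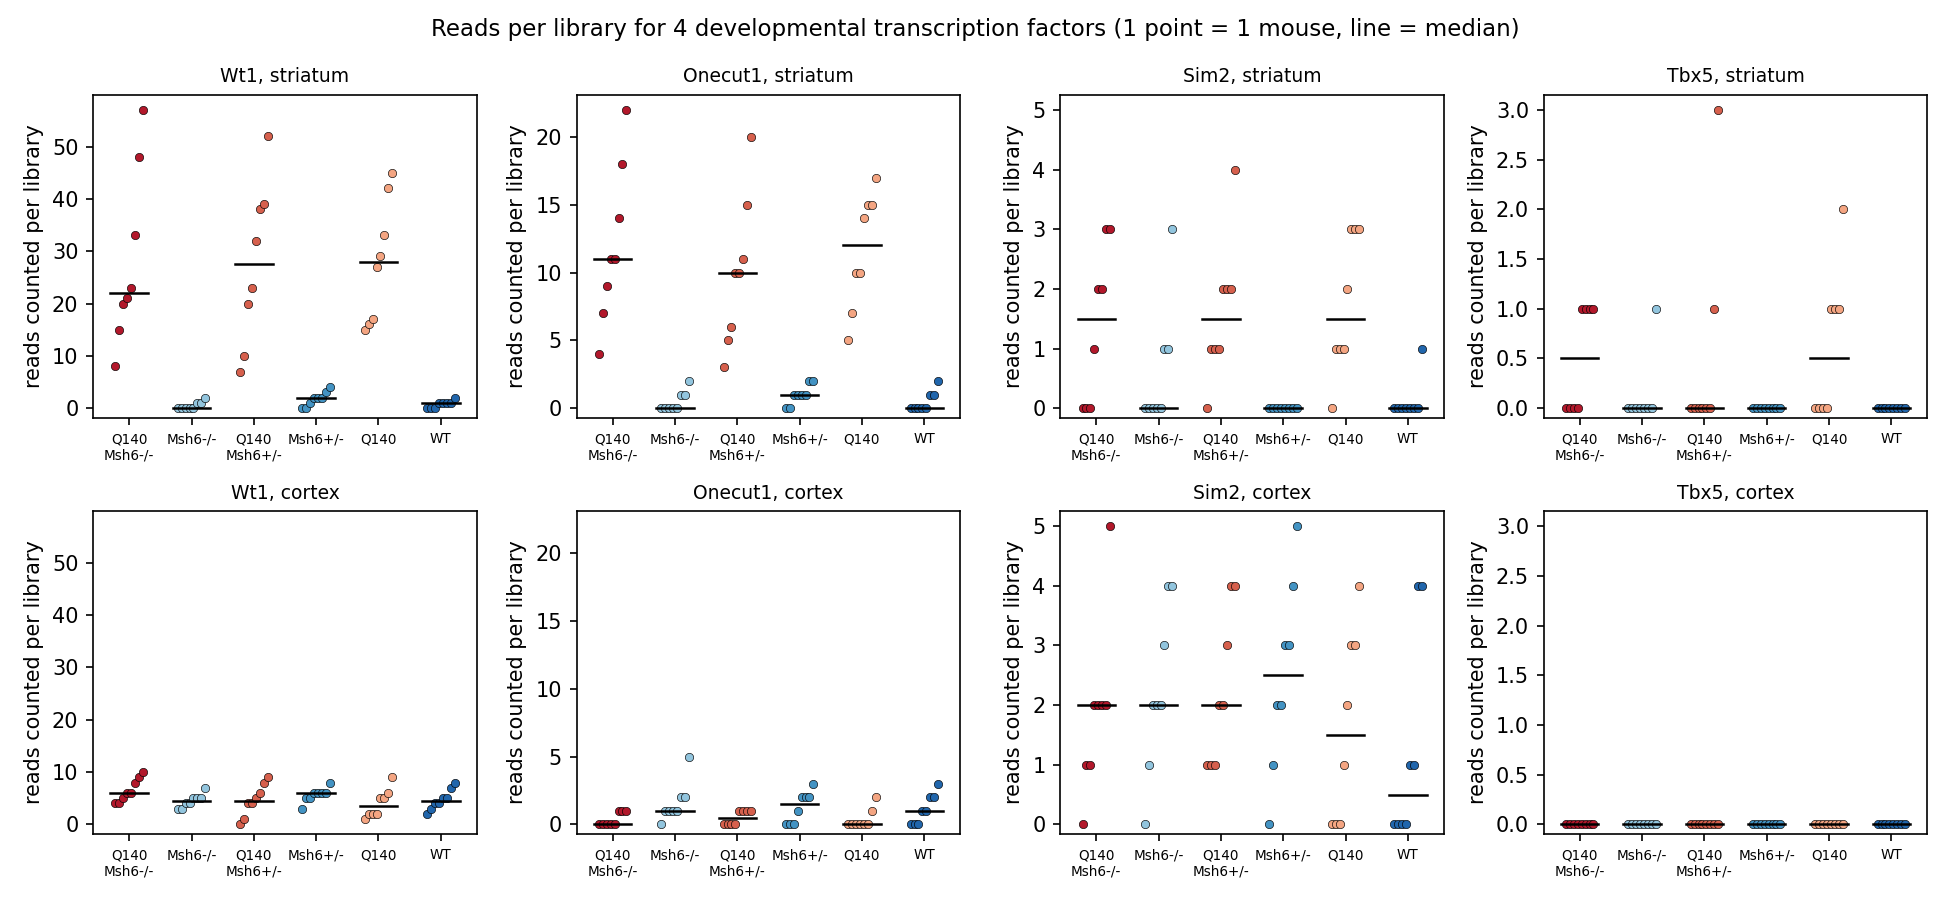
Reads per library (vertical axis) of Wt1, Onecut1, Sim2 and Tbx5 in striatum (upper row) and cortex (lower row) by genotype, 1 point per mouse and a line at the median of 8. In striatum all Q140 points of Wt1 and Onecut1 lie above all non-Q140 points, Sim2 and Tbx5 never exceed 4 reads, and in cortex the groups overlap.

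Sim2, a basic helix-loop-helix repressor of midline development (chr16:94084931-94127032, plus strand), was at the edge of detection. It had 0 to 3 reads in Q140 Msh6-/-, 0 to 4 in Q140 Msh6+/- and 0 to 3 in Q140 striata, against 0 to 3 in Msh6-/-, 0 in all 8 Msh6+/- and 0 to 1 in wild-type striata. At least 1 read was present in 19 of 24 Q140 striata, against 4 of 24 non-Q140 striata. The totals were 38 and 6 reads, a ratio of 6.67 scaled to library totals (95% exact interval 2.80 to 19.3 for counting error), and the log2 fold change was 2.58 ± 0.49 (adjusted p = 1.94e-05). Of the separate comparisons it was called in Q140 against wild type (adjusted p = 0.0132) and in Q140 Msh6+/- against Msh6+/- (adjusted p = 0.00207). The latter had 13 reads against 0, a ratio of 4.53 to a floor of 3 reads over the group. The lower limit of its 95% exact interval was 3.19. In Q140 Msh6-/- against Msh6-/- it had 11 and 5 reads and was not called.

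Tbx5, a T-box factor of heart and forelimb (chr5:119832668-119885219, plus strand), had 13 reads over 10 of 24 Q140 striata, against 1 read in 1 of 24 non-Q140 striata. The ratio scaled to library totals was 13.7 (95% exact interval 2.06 to 581), with an adjusted p = 0.0024, and in none of the separate backgrounds was it called. Irx5, an Iroquois homeodomain factor (chr8:92357625-92376286, plus strand), had 70 reads, at 0 to 7 per Q140 striatum, against 38 reads, at 0 to 6 per non-Q140 striatum. Its ratio was 1.94 (1.29 to 2.96) and its adjusted p = 0.0453, a call lost without any of the Q140 Msh6-/- mice 21-3, 24-2 and 32-4, the Q140 Msh6+/- mice 18-2 and 21-5 or the wild-type mice 13-1 and 21-1 (adjusted p = 0.0569 to 0.0784). The call of Irx5 was also lost with the animal number prefix in the model. Tbx5 and Irx5 thus rest on a few reads per library, with groups that overlapped.

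Onecut2 (chr18:64340020-64400987, plus strand) was at the opposite end of abundance. Lowest, median and highest levels were 79.6, 90.5 and 112 CPM in Q140 Msh6-/-, against 65.0, 78.3 and 88.1 CPM in Msh6-/- striata. They were 72.5, 91.5 and 106 CPM in Q140 Msh6+/-, against 78.1, 87.3 and 98.8 CPM in Msh6+/- striata, and 83.4, 90.2 and 107 CPM in Q140, against 61.5, 80.6 and 98.9 CPM in wild-type striata. The groups overlapped, and the pooled rise was small at 0.17 ± 0.04 on the log2 scale (adjusted p = 0.000645). In the separate backgrounds it was called on Msh6-/- alone (0.27 ± 0.07, adjusted p = 0.00305). The interaction of Q140 with Msh6-/- was not called for it or for any member.

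Otx2, a homeodomain factor of the anterior head and of the adult choroid plexus (chr14:48657677-48673819, minus strand), rose in the fit, a call that rested on 1 library. The Q140 Msh6-/- mouse 21-3 had 222 reads (12.1 CPM) in striatum, and the highest number in any other striatum was 12. Its log2 fold change was 1.10 ± 0.41 in the pooled comparison (adjusted p = 0.0367), and without that library 0.37 (adjusted p = 0.29). Without the wild-type mouse 13-1 or 21-1 the call was also lost (adjusted p = 0.0519 to 0.0529), as it was with limma on log2(FPKM + 0.1). On the Msh6-/- background the value was 3.27 ± 0.61 (adjusted p = 2.89e-05), and without it 1.13 (adjusted p = 0.0746). In the same library 10 choroid plexus markers summed to 2873 CPM, against 20.4 to 54.0 CPM in the other 47 striata, and Ttr, the transthyretin made by that epithelium, stood at 2490 CPM. Msx1, another homeodomain member, had 164 reads there, and at most 56 elsewhere. Wt1 and Onecut1 were as high without this library, at 4.77 and 3.90 in the pooled comparison.

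Nkx2-1 (chr12:56531958-56536908, minus strand) had 4.90, 6.22 and 6.63 CPM (lowest, median and highest) in Q140 Msh6-/- striata, against 5.06, 6.78 and 8.17 CPM in Msh6-/- striata. It had 5.20, 5.58 and 6.76 CPM in Q140 Msh6+/-, against 5.62, 6.92 and 7.95 CPM in Msh6+/- striata, and 4.78, 5.89 and 7.15 CPM in Q140, against 6.07, 6.88 and 9.50 CPM in wild-type striata. The medians were lower with Q140 on each background, and the groups overlapped. The pooled log2 fold change was -0.23 ± 0.05 (adjusted p = 0.000331), and in Q140 against wild type it was -0.30 ± 0.09 (adjusted p = 0.0144). Nkx2-1 did not pass the test on the Msh6+/- background (-0.25 ± 0.09, adjusted p = 0.0653) or on Msh6-/- (-0.15 ± 0.09, adjusted p = 0.336), and with filterByExpr it passed on Msh6+/- and against wild type. The call against wild type was lost without the wild-type mouse 13-1 (-0.23, adjusted p = 0.0878) and with the animal number prefix in the model (adjusted p = 0.0535). With limma on log2(FPKM + 0.1) that call was lost too (limma adjusted p = 0.0953). Gm26973, an antisense gene over 1566 bases of Nkx2-1, had 96 striatal reads.

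**Figure D3:**
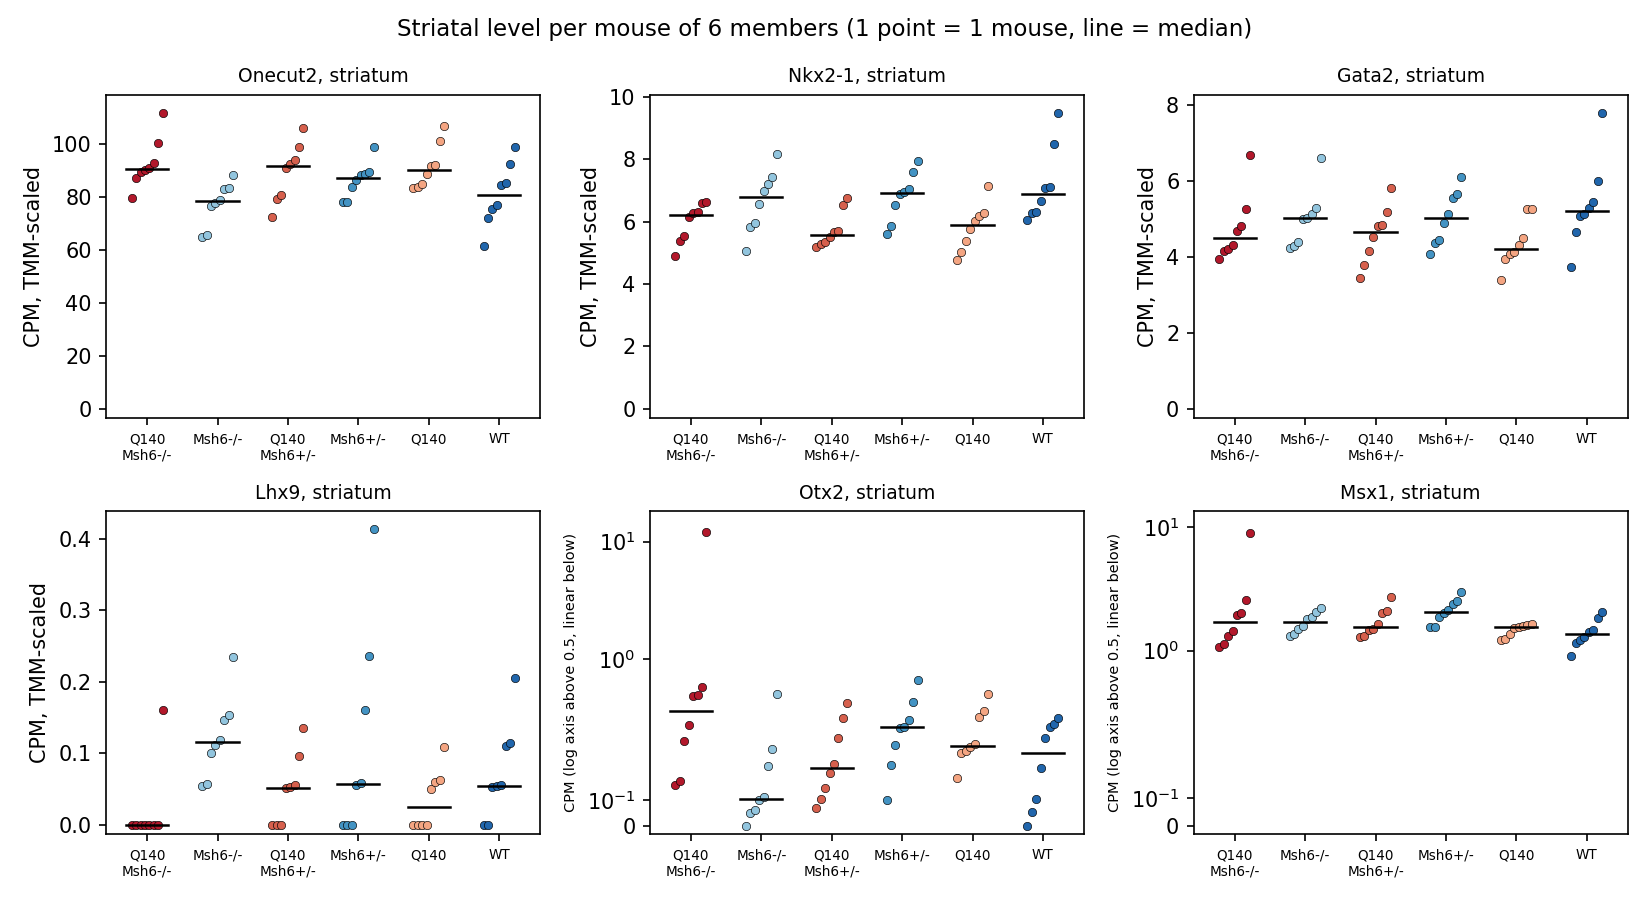
Striatal CPM (vertical axis) of Onecut2, Nkx2-1, Gata2, Lhx9, Otx2 and Msx1 by genotype, 1 point per mouse and a line at the median of 8, with a log axis above 0.5 for Otx2 and Msx1. The single high point of Otx2 and of Msx1 is the Q140 Msh6-/- mouse 21-3, and the groups overlap for Onecut2, Nkx2-1 and Gata2.

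Gata2 (chr6:88193891-88207032, plus strand) averaged 4.57 ± 0.76 CPM in Q140 and 5.14 ± 0.89 CPM in non-Q140 striata (SD, n = 24 each), a log2 fold change of -0.17 ± 0.07 (adjusted p = 0.0405). In the main fit it was called in no separate background. Against wild type it was called with filterByExpr, and also without mouse 21-3 (-0.31 ± 0.11, adjusted p = 0.046). The pooled call was lost without any of the Q140 Msh6-/- mice 24-2, 32-4 and 38-1 or the wild-type mouse 21-1 (adjusted p = 0.0575 to 0.0878). With limma on log2(FPKM + 0.1) the pooled call was lost as well (limma adjusted p = 0.36). Lhx9, a LIM-homeodomain factor of thalamic and other diencephalic neurons (chr1:138825186-138848577, minus strand), had 15 reads over 10 of 24 Q140 striata, against 46 reads over 19 of 24 non-Q140 striata. The ratio was 0.343 (95% exact interval 0.178 to 0.626), with a log2 fold change of -1.49 ± 0.43 (adjusted p = 0.00435). On the Msh6-/- background 1 of 8 Q140 Msh6-/- striata had reads, against 8 of 8 Msh6-/- striata (adjusted p = 0.032), a call lost without any of mice 21-3, 24-2 or 32-4 (adjusted p = 0.0525 to 0.0735), with a log2 fold change of -4.18 without mouse 38-1, which held all 3 reads. That call was also lost with limma on log2(FPKM + 0.1).

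Of 8 markers of thalamic and habenular neurons 3 were higher and 1 lower in Q140 striatum, with sums of 27.6 to 35.0 CPM in Q140 and 24.7 to 37.0 CPM in non-Q140 striata. Of 12 markers of pallidal, basal forebrain and hypothalamic neurons 1 was higher and 5 were lower, with sums of 146 to 166 CPM in Q140 and 148 to 181 CPM in non-Q140 striata. Of the other lists, all 8 endothelial, 7 of 9 mural, 6 of 6 microglial, 5 of 6 astrocyte, 4 of 6 oligodendrocyte and 1 of 10 fibroblast markers fell, 3 of 10 choroid plexus and 4 of 8 ependymal markers rose, and none of 5 blood markers was called. Of all genes 13.4% fell and 14.7% rose, and of those that pass filterByExpr 52.7% were called in either direction. Without mouse 21-3, 3 fibroblast markers fell and 2 choroid plexus and 3 ependymal markers rose. Of the choroid plexus markers, 10 of 10 were called in Q140 Msh6-/- against Msh6-/- with that library and 1 without it, and 0 of 10 in Q140 against wild type. The endothelial sums were 199 to 241 CPM in Q140 and 229 to 302 CPM in non-Q140 striata. Of 8 cortical glutamatergic markers 3 were higher and 1 lower, with sums of 33.8 to 52.1 CPM in Q140 and 31.7 to 44.5 CPM in non-Q140 striata. No marker of these lists was at 0 in every striatum, and the part of such cells or of endothelium in the changes of Lhx9, Nkx2-1, Sim2 and Gata2 was not tested.

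The other abundant members did not pass the test in the pooled striatal comparison. The log2 fold change was 0.04 ± 0.06 for Pax6, -0.09 ± 0.08 for Tbx3, -0.15 ± 0.07 for Tbx2, -0.10 ± 0.10 for Tbx1, -0.14 ± 0.12 for Tbx18, 0.01 ± 0.13 for Otx1, 0.10 ± 0.14 for Msx1 and -0.20 ± 0.12 for En2. Without mouse 21-3 the value of Msx1 was -0.10 ± 0.09, and that of Otx1 was -0.01 ± 0.13. The 11 members without a striatal read, 8 of them Hox or Fox genes, were under detection in all 24 Q140 libraries as in the others.

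**Figure D4:**
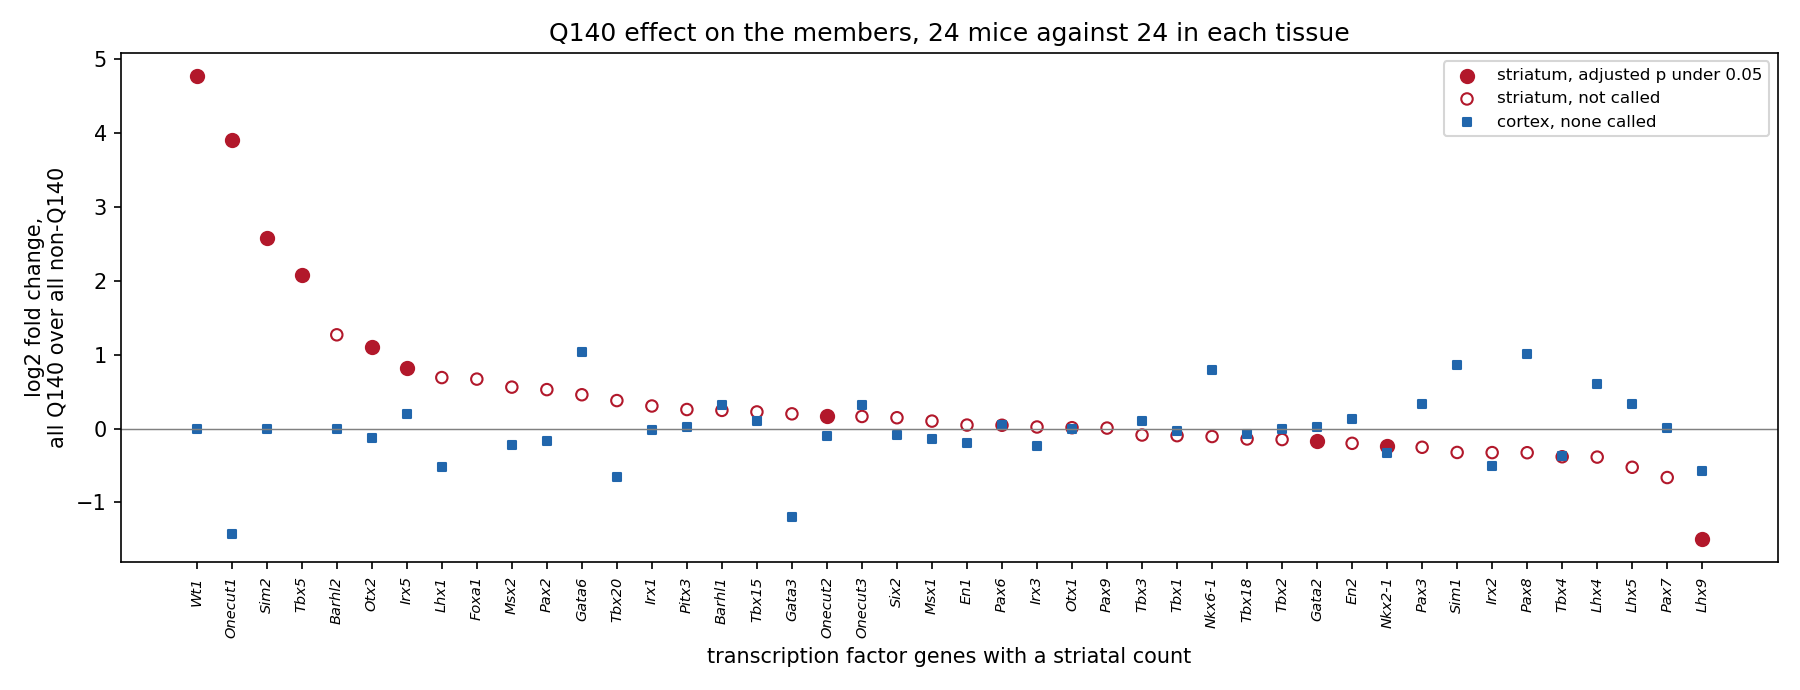
Log2 fold change of all Q140 over all non-Q140 mice for the 44 members with a striatal read (vertical axis, with genes along the horizontal axis ordered by the striatal value), with striatum as circles, filled where the adjusted p is under 0.05, and cortex as squares. Wt1 at 4.77 and Onecut1 at 3.90 lead the striatal values, and no cortical value was called.

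In cortex none of the 46 members with a cortical read was called in the pooled comparison, when 0.695% of 32933 genes were called. At an unadjusted p under 0.05 there were 5, and DESeq2 and limma called none. Wt1 had reads in 23 of 24 Q140 and in 24 of 24 non-Q140 cortices and averaged 0.252 ± 0.15 CPM in Q140 and 0.247 ± 0.085 CPM in non-Q140 cortices (SD, n = 24 each). The highest cortical library had 0.532 CPM and the lowest Q140 striatum 0.459 CPM, so these ranges overlapped slightly, while non-Q140 striata ran from 0 to 0.222 CPM and non-Q140 cortices from 0.101 to 0.474 CPM. Onecut1 had 10 reads over all Q140 cortices, against 32 over all non-Q140 cortices, a direction opposite to striatum, but the difference was not called (log2 fold change -1.43 ± 0.45, adjusted p = 0.14). Sim2 had 46 reads in Q140 and 48 in non-Q140 cortices, and its pooled 0.0951 CPM in Q140 cortices lay close to the 0.0892 of Q140 striata.

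The Q140 effect itself differed between tissues for 4 of 49 members, when 17.5% of 34661 genes did. In striatum minus cortex the difference on the log2 scale was 4.76 ± 0.37 for Wt1 (adjusted p = 2.64e-21), 5.31 ± 0.58 for Onecut1 (adjusted p = 2.01e-13), 2.61 ± 0.60 for Sim2 (adjusted p = 0.000397) and 0.25 ± 0.07 for Onecut2 (adjusted p = 0.00758). With the mouse as a block 5 members and 19.8% of genes were called, Gata2 being added (-0.20 ± 0.07, adjusted p = 0.0373).

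Within cortex, 0 members were called in Q140 Msh6-/- against Msh6-/- (0.0789% of genes called), Q140 Msh6+/- against Msh6+/- (0.10%) and Q140 against wild type (0.0121%), with 2, 1 and 2 members at an unadjusted p under 0.05. The Msh6 comparisons gave no call among the members. In striatum 0 were called in Msh6-/- against wild type (0.0649% of genes), Msh6+/- against wild type (0.00618%), Q140 Msh6-/- against Q140 (0.155%) and Q140 Msh6+/- against Q140 (0.00309%), with 0, 3, 4 and 4 at an unadjusted p under 0.05. In cortex the same 4 comparisons also gave 0, with 0.0850%, 0.00607%, 0.0911% and 0.00607% of genes called and 1, 1, 2 and 1 members at an unadjusted p under 0.05. The interactions of Q140 with Msh6-/- and with Msh6+/- called no gene in either tissue, with 2 and 3 members under an unadjusted p of 0.05 in striatum and 1 and 2 in cortex. DESeq2 and limma called no member in any of these comparisons. The smallest adjusted p among them in striatum was 0.0588, for Otx2 in Q140 Msh6-/- against Q140, the comparison that holds mouse 21-3.

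Striatum and cortex differed for 28 of 49 members, when 56.9% of all genes did, for 25 with the mouse as a block (54.7% of genes), which lost Lhx4, Barhl2 and Onecut3, and for 11 of 15 with filterByExpr (87.1%). Higher in striatum were Nkx2-1 (log2 difference 7.72 ± 0.10), Otx2 (4.19 ± 0.40), Onecut2 (3.79 ± 0.03), Irx5 (3.17 ± 0.31) and Irx2 (3.05 ± 0.40), together with En1, Tbx20, Onecut1, Barhl1, Lhx1, En2, Tbx4, Irx1 and Tbx1. Mouse 21-3 held 222 of the 469 striatal reads of Otx2, against 15 reads in all cortices. The tissues were not compared without that mouse. Lower in striatum, and so higher in cortex, were Pax2 (-4.74 ± 0.28), Six2 (-3.93 ± 0.24), Otx1 (-2.38 ± 0.06) and Tbx15 (-2.18 ± 0.11), with Msx2, Pitx3, Lhx9, Sim2, Tbx18, Pax6, Msx1, Lhx4, Barhl2 and Onecut3. The average mixes Q140 and non-Q140 mice. Pooled Onecut1 was 0.0357 CPM in striatum and 0.0659 in cortex without Q140, but 0.631 and 0.0207 with it. Sim2 was 0.0134 and 0.0988 CPM without Q140, and 0.0892 and 0.0951 with it. Wt1 was not called (0.16 ± 0.41), at 0.0535 and 0.245 CPM without Q140 and 1.57 and 0.250 with it. Pax2, Six2, Tbx15 and Tbx18 are factors of kidney or mesenchyme, and of 10 fibroblast and meningeal markers 9 were lower in striatum and 1 was higher, with median sums of 86.7 CPM in striatum and 128.8 CPM in cortex. The range was 73.1 to 104 CPM in striatum without mouse 21-3, which stood at 221 CPM, and 73.6 to 164 CPM in cortex. The part of meningeal tissue in those members was not tested.

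Sex was examined after the values were seen. Wt1 averaged 1.88 ± 0.68 CPM in female and 1.10 ± 0.44 CPM in male Q140 striata (SD, n = 12 each), a log2 difference of 0.75 ± 0.19 that missed the threshold (adjusted p = 0.0549). No member was called between the sexes in Q140 striata (0.365% of genes called), non-Q140 striata (0.281%), Q140 cortices (0.452%) or non-Q140 cortices (0.647%), with 3, 4, 0 and 1 members at an unadjusted p under 0.05.

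Of 38 Polycomb proteins and their antagonists, all measured, 16 rose and 9 fell in the pooled striatal comparison, and none was called in cortex. These were 42.1% and 23.7% of the list, when 14.7% of all genes rose and 13.4% fell. Of the genes that pass filterByExpr, 52.7% were called in either direction, against 25 of the 38 without that filter. Sfmbt2, an MBT-domain Polycomb protein, rose to 9.44 ± 1.2 CPM in Q140 striata, against 2.46 ± 0.54 CPM in non-Q140 striata (SD, n = 24 each; log2 fold change 1.94 ± 0.07, adjusted p = 5.32e-35). Cbx8, a chromodomain subunit of Polycomb repressive complex 1, rose to 14.9 ± 1.8 CPM in Q140 striata, against 8.59 ± 1.3 CPM in non-Q140 striata (0.80 ± 0.05). Smaller rises were seen for Bmi1 (0.20 ± 0.02) and Rnf2 (0.20 ± 0.03), core subunits of that complex, and for Kdm6b, a demethylase that removes the Polycomb histone methyl mark (0.27 ± 0.04). Bap1, a deubiquitinase that removes the histone ubiquitin mark of Polycomb repressive complex 1, fell (-0.17 ± 0.02), as did Scmh1, another subunit of that complex (-0.18 ± 0.03). Sfmbt2, Cbx8, Bmi1, Rnf2, Bap1, Kdm6b and Scmh1 were also among the 11 of 38 called in Q140 against wild type, when 14.1% of all genes were.

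Among 73 further genes of the same transcription factor families, 49 had a striatal read, 6 rose and none fell in the pooled comparison. The 6 were 12.2% of the 49, when 14.7% of all genes rose and 13.4% fell. Isl1, a LIM-homeodomain factor of striatal neurons, rose to 22.8 ± 1.6 CPM in Q140, against 17.7 ± 1.6 CPM in non-Q140 striata (0.37 ± 0.03, adjusted p = 4.90e-15), and Six3 rose by 0.12 ± 0.03. The other 4 were near the limit of detection. Hoxa7 had 105 reads in Q140, against 41 in non-Q140 striata, Nkx2-3 22 against 3, Hoxc4 13 against 1 and Hoxc6 12 against 0. In Q140 against wild type Isl1, Hoxc6 and Hoxa7 were called.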

How the data were processed

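RNA-seq of striatum and cortex gave 96 libraries. The submitters' processing notes name STAR 2.7.5c, SAMtools 1.10, HTSeq 0.12.3 and the build GRCm38 (mm10), and per the labels' protocols the kit was stranded. Neither labels nor files state which strand option or annotation was used for counting. The authors deposited raw counts per gene and FPKM values. Each FPKM equalled the count over 1 length per gene and the column total, within 0.1% for all values with at least 20 reads. Totals of 12403528 to 22886441 reads limit what low genes can show, and intervals and floors (3 reads) cover counting error only.

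Counts were tested with edgeR 4.0.16 (R 4.3.3), by the quasi-likelihood test with TMM scaling, on every gene with at least 1 read in the tissue and no expression filter. The model held 6 genotypes and sex, and Benjamini-Hochberg adjustment ran over all genes with a threshold of 0.05. Every ± on a log2 value is the SE and every adjusted p is from this test unless another is named. Tissues were compared in 1 fit over 96 libraries. Both libraries of a mouse come from the same animal, so the mouse was a block in an alternative fit. Deviations from group means correlated at a median r of 0.18 (-0.10 to 0.34, 48 mice) over 16806 genes, against -0.0047 between mice. The other alternatives were filterByExpr, RLE scaling, DESeq2 1.42.0, a threshold of 0.1, no sex term, the animal number prefix, limma 3.58.1 on log2(FPKM + 0.1), only the groups compared, and leaving out single libraries (other than mouse 21-3, chosen after seeing the data, as were the comparisons of the sexes). The scripts were tested on simulated data. Correlation p-values are from permutation tests (scipy 1.17.1, Python 3.11.15).

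Coordinates are GENCODE M21 on GRCm38. The members, the gene lists and the tests were chosen with earlier results of these data known. Genes named with values are all members called in a comparison, the 8 with the highest CPM in each tissue, Msh6 and Htt, and up to 6 genes of smallest adjusted p in the Polycomb and same-family lists, of which 1 is not reported here; other members named with values were chosen after the values were seen.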

Additional observations from a re-analysis of the deposited data

Results flagged for a closer look

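Of 105 sets of 8 values, each of 1 member in 1 genotype and tissue with a mean of at least 5 reads, 5 had an outlying mouse. In these its gap to the next was large for 8 values. The number is about what chance gives at 1 in 20, but it does not speak to the size of a gap. The sets of Otx2 and Msx1 share 1 library and are not independent. Gata2 stood at 6.62 CPM in the Msh6-/- striatum of mouse 32-1, next to 5.30 CPM. Otx2 was 12.1 CPM, next to 0.587 CPM, and Msx1 8.91 CPM, next to 2.56 CPM, in the Q140 Msh6-/- striatum of mouse 21-3, the library with high choroid plexus markers. Onecut2 was 7.46 CPM in the Q140 cortex of mouse 22-2, next to 5.96 CPM, and Tbx18 3.79 CPM in the wild-type cortex of mouse 16-1, next to 2.73 CPM.

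The Q140 effect differed between striatum and cortex for 4 members in edgeR's quasi-likelihood test of the difference itself. Striatum minus cortex was 4.76 for Wt1 (adjusted p = 2.64e-21), 5.31 for Onecut1 (adjusted p = 2.01e-13), 2.61 for Sim2 (adjusted p = 0.000397) and 0.25 for Onecut2 (adjusted p = 0.00758) on the log2 scale.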

How the results depend on the processing

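Of 212 alternative values for 24 counts of members called or detected, 204 stayed within the limits set for a change. Most of these counts were 0 in the main fit, so that share says little about the members that were called. No log2 fold change of a member called for Q140 reversed in an alternative. With filterByExpr, which only 13 striatal members pass, the members called numbered 5 in all Q140 against all non-Q140 striata, 3 in Q140 Msh6-/- against Msh6-/- and 11 between striatum and cortex. At a threshold of 0.1 the count was 7 in Q140 against wild-type striatum and 1 in Q140 Msh6-/- against Q140, and 1 there with the animal number prefix as a covariate. In Q140 Msh6-/- against Msh6-/- striatum it was 3 with DESeq2 and 3 without mouse 21-3. Leaving out single libraries gave 7 to 10 members in the pooled striatal comparison, 3 to 5 in Q140 against wild type, 3 to 4 on Msh6+/- and 3 to 5 on Msh6-/-. With the mouse as a replicate block, 25 members differed between tissues and 5 in the Q140 effect; the other comparisons set different mice against each other and could not be blocked.

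The calls of Wt1, Onecut1, Sim2, Tbx5 and Onecut2 held in every alternative run for them. So did the pooled striatal calls of Lhx9 and Nkx2-1, which fell. Fewer alternatives could be run for members with few reads. The pooled striatal calls had 15 for Wt1, Onecut1, Onecut2 and Nkx2-1, 14 for Sim2 and Lhx9, and 13 for Tbx5. Irx5 lost its call in 8 of 14, Gata2 in 5 of 15, Otx2 in 4 of 13, and Nkx2-1 against wild type in 3 of 16, where the cause was not tested. Lhx9 on Msh6-/- lost it in 4 of 14 and moved to -4.18 without mouse 38-1. Members with a few reads per library can be shown to differ only when the change is large, and a fold change on log2(FPKM + 0.1) understates low genes.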

Other observations

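In non-Q140 striata Wt1 also averaged more in females, at 0.0827 ± 0.072 CPM, than in males, at 0.0306 ± 0.042 CPM (SD, n = 12 each), from 17 and 7 reads, and the sex difference was not called (edgeR's quasi-likelihood test, adjusted p = 0.611). In cortex the sexes had 0.242 ± 0.18 CPM in Q140 females and 0.263 ± 0.12 CPM in Q140 males (SD, n = 12 each). Otx2os1, annotated over 5112 bases of Otx2 on the opposite strand, had 13 reads in 2 of 48 striata and none in cortex.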
